A study of Bos taurus with 39 samples.

Results

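ISG15 conjugation is a ubiquitin-like pathway of the interferon response, and its 5 genes studied here are ISG15, UBA7, HERC5, HERC6 and USP18. They were taken by name as rows of the deposited table, 5 of 21590 genes, and each name matched 1 row. All 5 passed the filter on low values, at least 1 RPKM (reads scaled by gene length and by the mapped reads of the library) in at least 17 cows, which kept 10636 genes. The cells are milk somatic cells of 39 Holstein cows, 22 labelled LOW RFI and 17 labelled HIGH RFI, with 1 library per cow. RFI is read here as residual feed intake, so that a low value marks the more feed-efficient animal. Both groups are of the same breed and tissue, and the labels name no treatment and no genotype. The question put to the cells is how expression differs between efficient and inefficient cows.

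ISG15 is a small protein made of a pair of ubiquitin-like folds that is attached to other proteins when cells respond to type I interferon. UBA7 activates it, a conjugating enzyme (UBE2L6) carries it, and large ligases of the HERC family place it on target proteins. HERC5 is the main such ligase in human cells and HERC6 in mouse cells. USP18 is a protease that removes ISG15 from its targets, and it also dampens signalling at the interferon receptor IFNAR2. Neutrophils, macrophages and epithelial cells all occur in milk and can all respond to interferon.

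Mapped reads per library, recovered from the RPKM values, lay between 41637742 and 204905052 in LOW RFI cows and between 61576736 and 153880796 in HIGH RFI cows. The cells of every cow held markers of several types, and no marker list had a member listed at 0 in all cows. Neutrophil markers (10 of the 12 listed have a row) summed to 24.7 to 3605 RPKM in LOW RFI cows and to 15.9 to 3597 RPKM in HIGH RFI cows. The sums of the 12 macrophage markers were 29.2 to 2368 RPKM in LOW RFI and 24.2 to 2255 RPKM in HIGH RFI cows, and those of the 12 mammary epithelium markers were 182 to 3252 and 211 to 2138 RPKM in the same groups. The 7 milk protein genes summed to 1072 to 444345 RPKM in LOW RFI and to 474 to 543189 RPKM in HIGH RFI cows. In such bulk samples fewer cells of a type and less RNA per cell cannot be told apart.

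ISG15, the modifier, had the highest mean level of the 5 transcripts. Its level was 5.23 RPKM in the lowest LOW RFI cow, 52.9 RPKM at the median and 312 RPKM in the highest. In HIGH RFI cows the lowest was 3.70 RPKM, the median 112 RPKM and the highest 809 RPKM. The groups overlapped over nearly their whole range, since all 22 LOW RFI cows lay between the HIGH RFI minimum and maximum. The lowest values came from LOW RFI 20 and HIGH RFI 17, and the highest from HIGH RFI 11, a cow tagged Feb20 in its column name. A median of 2941 reads in LOW RFI and 5076 reads in HIGH RFI cows lay behind these values, and the fewest were 283 and 137 reads.

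UBA7, the activating enzyme, ran at a far lower level. It ranged from 0.454 RPKM through a median of 5.59 RPKM to 15.3 RPKM in LOW RFI cows, against 0.417, 7.55 and 28.5 RPKM in HIGH RFI cows. LOW RFI 20 and HIGH RFI 17 were again the lowest of their groups, while the highest HIGH RFI cow here was HIGH RFI 3. UBE2L6, the conjugating enzyme, which is not one of the 5, averaged 11.2 ± 5.38 RPKM over LOW RFI cows (SD, n = 22), against 15.8 ± 8.75 RPKM over HIGH RFI cows (SD, n = 17).

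HERC5 and HERC6, the ligases, are neighbours on the chromosome in the RefSeq annotation and resemble each other. How the authors' counting treated reads that match both is not given in the sources used here. HERC5 was at 0.376, 2.15 and 8.23 RPKM (lowest, median, highest) in LOW RFI cows and at 0.0445, 4.55 and 30.9 RPKM in HIGH RFI cows. HERC6 was at 2.18, 9.75 and 24.8 RPKM in LOW RFI cows and at 2.90, 10.5 and 35.9 RPKM in HIGH RFI cows. The cows with the least HERC5 were not those with the least HERC6. HIGH RFI 17 held 9 reads of HERC5 and 4018 reads of HERC6, and LOW RFI 20 held 111 and 7705 reads.

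USP18, the protease, was at 0.428 RPKM in the lowest LOW RFI cow, 5.01 RPKM at the median and 8.76 RPKM in the highest, against 0.490, 6.42 and 19.5 RPKM in HIGH RFI cows. Its lowest cows were once more LOW RFI 20 and HIGH RFI 17, and its highest cow was HIGH RFI 3.

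**Figure D1:**
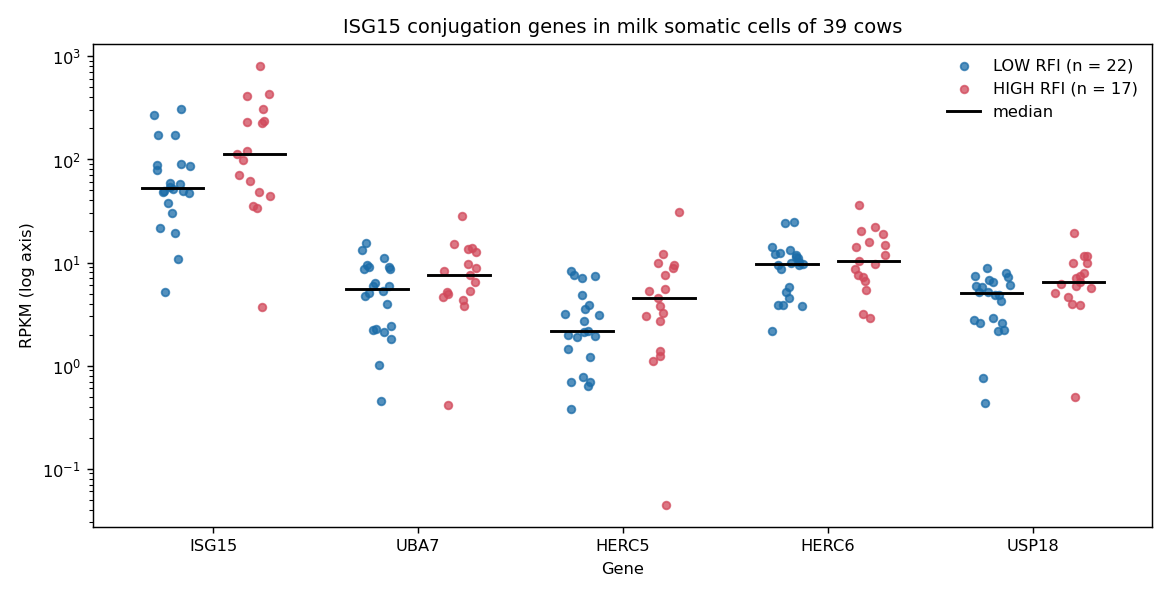
RPKM of each gene (log axis) in 22 LOW RFI and 17 HIGH RFI cows, where a point is 1 cow and a bar the group median. The groups overlap for every gene, and ISG15 has the highest medians and runs from 3.70 to 809 RPKM.

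The order of mean levels over the 39 cows, on the log2(RPKM + 1) scale, was ISG15, HERC6, UBA7, USP18 and HERC5. ISG15 exceeded HERC6 by a mean of 2.85 ± 1.78 (SD, n = 39 cows), in 36 of 39 cows. The 3 exceptions were LOW RFI 18, LOW RFI 20 and HIGH RFI 17, where HERC6 was above ISG15. Over the same 39 cows HERC6 exceeded UBA7 by a mean of 0.62 ± 1.36 and lay above it in 24. UBA7 exceeded USP18 by a mean of 0.18 ± 0.38 and lay above it in 28. USP18 exceeded HERC5 by a mean of 0.52 ± 0.70 and lay above it in 30. Each of the 4 steps passed a two-sided sign-flip permutation test with 100000 resamples, with adjusted p from 4e-05 to 0.00627. The step between HERC6 and UBA7 did not pass without LOW RFI 18, LOW RFI 20, HIGH RFI 11 and HIGH RFI 17 (difference 0.32, adjusted permutation p = 0.0746). These cows held the 3 lowest ISG15 values and the highest.

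On the log2(RPKM + 1) scale, whose pseudocount compresses low genes, the spread over cows was widest for ISG15. Its SD was 1.61, larger than that of 98.6% of all tested genes and of 96.4% of the 500 genes nearest to it in mean level. HERC5 had an SD of 1.05 and exceeded 94.0% of the 500 genes of like level. For UBA7 the SD was 0.97 (87.0% of genes of like level), for HERC6 0.81 (70.2%) and for USP18 0.81 (72.0%). The median SD of all tested genes was 0.60. By the highest over the lowest RPKM of the 39 cows, HERC5 spread more (695-fold) than ISG15 (219-fold), where the lowest HERC5 value rests on 9 reads.

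All 5 genes had a lower mean in LOW RFI than in HIGH RFI cows, and none passed the test. The test was limma-trend on log2(RPKM + 1), fitted to all 10636 genes with Benjamini-Hochberg adjustment, and it called 0 of the 5 genes and 0 genes in all (0% of those tested). At an unadjusted p under 0.05 it gave 633 genes, and limma-voom, run on recovered reads, gave 0 adjusted calls and 252 at that level. Of all tested genes 73% were lower in LOW RFI, which is the background for the shared direction of the 5. The median difference of the 5 was -0.55, against -0.12 over all genes.

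ISG15 averaged 82.4 ± 80.2 RPKM over LOW RFI cows (SD, n = 22), against 193 ± 207 RPKM over HIGH RFI cows (SD, n = 17). The difference on the log2(RPKM + 1) scale was -0.95 with an SE of 0.48 (limma unadjusted p = 0.0538, adjusted 0.769). It lay below the HIGH RFI median in 18 of 22 LOW RFI cows. UBA7 averaged 6.08 ± 4.06 RPKM over LOW RFI cows (SD, n = 22), against 8.98 ± 6.48 RPKM over HIGH RFI cows (SD, n = 17), a difference of -0.48 (SE 0.30, limma adjusted p = 0.769), and 14 of 22 LOW RFI cows fell short of the median HIGH RFI cow.

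HERC5 averaged 3.07 ± 2.48 RPKM over LOW RFI cows (SD, n = 22), against 6.51 ± 7.20 RPKM over HIGH RFI cows (SD, n = 17), a difference of -0.66 (SE 0.31, limma unadjusted p = 0.0414, adjusted 0.769). HERC6 averaged 10.1 ± 5.85 RPKM over LOW RFI cows (SD, n = 22), against 12.7 ± 8.32 RPKM over HIGH RFI cows (SD, n = 17), a difference of -0.25 (SE 0.26, limma adjusted p = 0.789). HERC5 lay below the HIGH RFI median in 17 of 22 LOW RFI cows and HERC6 in 13. USP18 averaged 4.68 ± 2.34 RPKM over LOW RFI cows (SD, n = 22), against 7.49 ± 4.23 RPKM over HIGH RFI cows (SD, n = 17), a difference of -0.55 (SE 0.24, limma unadjusted p = 0.0281, adjusted 0.769), and 16 of 22 LOW RFI cows fell short of the median HIGH RFI cow. HERC5 and USP18 thus had an unadjusted p under 0.05 with a lower mean in LOW RFI, 2 of 5 genes, where 5.52% of all tested genes did. A two-sided permutation test of the group means with 100000 resamples gave unadjusted p of 0.0675 for ISG15, 0.125 for UBA7, 0.0507 for HERC5, 0.344 for HERC6 and 0.0323 for USP18.

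Single cows weighed on these differences in both directions. Without HIGH RFI 11, the highest cow for ISG15, HERC5 and HERC6, the differences were -0.77 for ISG15, -0.50 for HERC5 and -0.15 for HERC6. Without HIGH RFI 3, their highest cow, USP18 was at -0.46 and UBA7 at -0.37. Without HIGH RFI 17, a cow of very high milk protein transcripts left out after its values were seen, ISG15 was at -1.24 (SE 0.43, limma adjusted p = 0.183) and USP18 at -0.70 (adjusted p = 0.162). In that fit 2218 genes had a limma unadjusted p under 0.05, against 633 with all cows, and the median difference of all genes was -0.21. LOW RFI 18 and LOW RFI 20, also of very high milk protein transcripts, stayed in it. With them and HIGH RFI 11 left out as well, the differences were -0.79 for ISG15, -0.43 for UBA7 and -0.53 for HERC5. They were -0.23 for HERC6 and -0.49 for USP18 (limma adjusted p of all members from 0.501 to 0.645).

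Weighting libraries by their variability changed 2 calls. With array weights limma gave adjusted p of 0.00363 for HERC5 and 0.0287 for USP18, and limma-voom with quality weights gave 0.00868 and 0.0404. The other 3 genes were not called under either weighting, with ISG15 at 0.0502 and 0.0635. Those fits also called 20.6% and 18.4% of all tested genes as lower in LOW RFI.

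Markers of milk cell types also had different means in the groups. The median difference of the 9 tested neutrophil markers was -0.98, and that of the 10 tested macrophage markers was -0.41, with none of either passing. The 7 milk protein genes had a median difference of 1.00 and were all higher on average in LOW RFI, none passing. The part of these markers in the differences was not tested beyond the fits that follow. With the neutrophil and mammary epithelium scores as covariates (a score is the mean log2(RPKM + 1) of a list's tested members), the differences were -0.17 for ISG15, -0.092 for UBA7, -0.29 for HERC5, -0.32 for HERC6 and -0.24 for USP18. With the macrophage and T cell scores added they were -0.17, -0.097, -0.29, -0.30 and -0.24. HERC6 was the only one of the 5 whose difference was not closer to 0 with the 2 scores than without them.

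**Figure D2:**
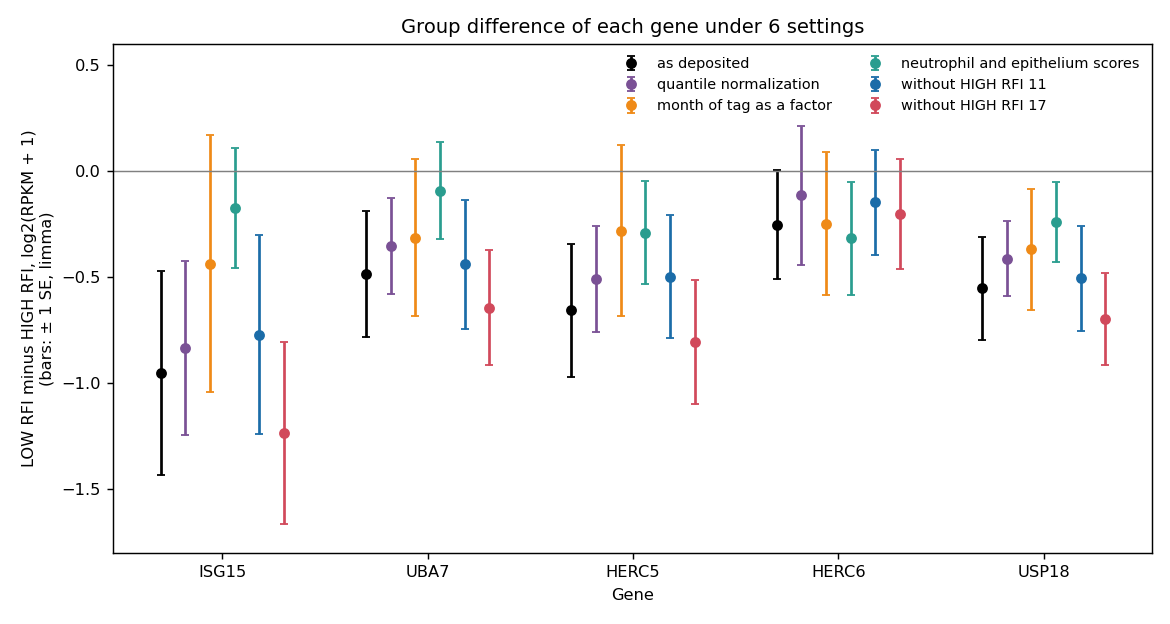
LOW RFI minus HIGH RFI difference of each gene on the log2(RPKM + 1) scale, with bars of 1 SE from limma, as deposited and under 5 other settings. For ISG15 the difference runs from -1.24 without HIGH RFI 17 to -0.17 with 2 cell type scores as covariates.

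In 8 column names the cow number has an added mark, whose meaning is not given, and 7 of these are LOW RFI. Without the marked libraries the differences were -0.66 for ISG15 (SE 0.54), -0.28 for UBA7, -0.45 for HERC5, -0.31 for HERC6 and -0.40 for USP18. There 106 genes had a limma unadjusted p under 0.05, against 633 with all cows. The median difference of all genes was -0.016, against -0.12. The part of the mark was not tested. The column names also carry a month, and months were uneven between the groups. All 6 cows tagged Feb20 were HIGH RFI, as were both cows tagged May20, while the 2 Oct19 cows and the Mar20 cow were LOW RFI. With month as a factor the differences were -0.44 for ISG15 (SE 0.61), -0.31 for UBA7, -0.28 for HERC5, -0.25 for HERC6 and -0.37 for USP18 (SE 0.29), with limma unadjusted p from 0.207 to 0.490. Only 3 months held at least 2 cows of each group.

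Within Sep19 (4 LOW RFI and 2 HIGH RFI cows) all 5 were lower in LOW RFI, with differences of -0.72 for ISG15 and -1.19 for HERC5. The exact permutation p were between 0.133 and 0.467, where 0.0667 is the smallest that 4 against 2 cows allow. Within Jan20 (2 and 2 cows) ISG15 was at -0.59 and USP18 at -0.23, while HERC5 was higher in LOW RFI by 1.2, HERC6 by 0.30 and UBA7 by 0.095 (exact permutation p from 0.333, the smallest this number of cows allows, to 1). Within Jun20 (6 and 3 cows) ISG15 was at 0.34, UBA7 at 0.43 and USP18 at 0.19, with HERC5 at -0.22 and HERC6 at -0.31 (exact permutation p from 0.583 to 0.774). Leaving out HIGH RFI 17 changed the sign in Jun20 for 4 of the 5 genes. Without it ISG15 was at -1.23, UBA7 at -0.35, USP18 at -0.51 and HERC6 at 0.011, and HERC5 was at -1.05. The group difference did not hold in every month, and no month's difference passed.

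**Figure D3:**
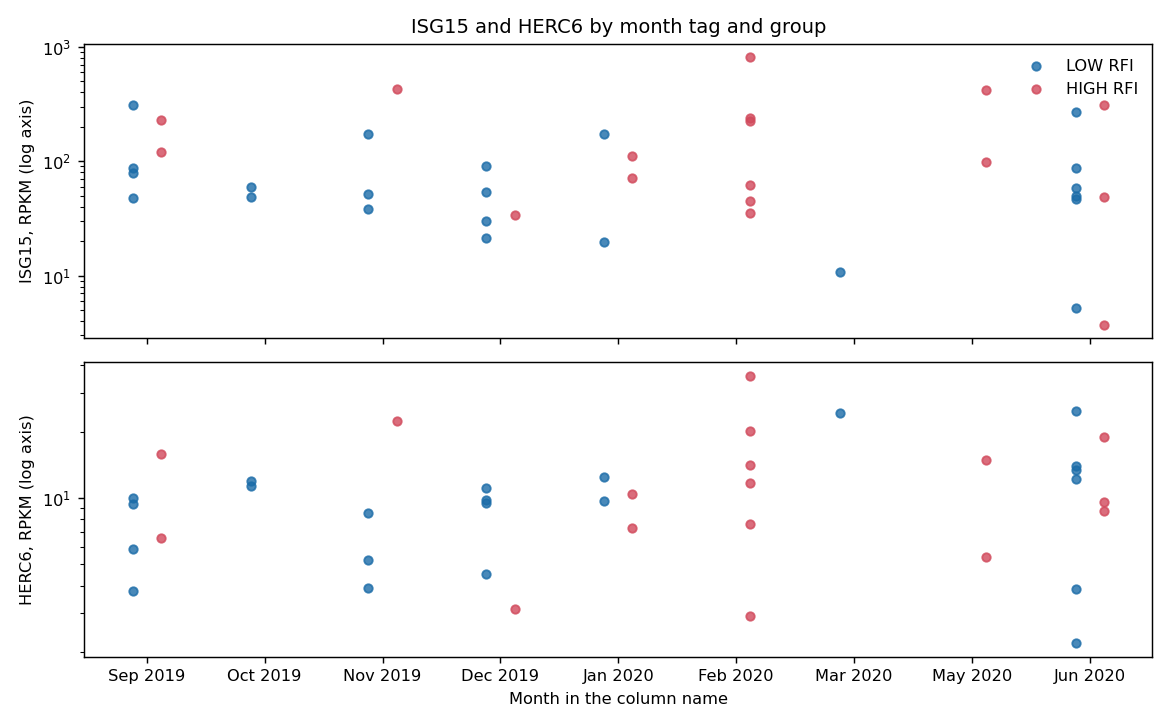
RPKM of ISG15 and HERC6 (log axes) by the month in the column name, with a point per cow coloured by group. Feb20 and May20 hold HIGH RFI cows only, and Jun20 holds both the ISG15 minimum of 3.70 RPKM and a HIGH RFI cow at 308 RPKM.

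By year of the tag, the difference of ISG15 was -1.13 (SE 0.86) in the earlier year (Sep19 to Dec19) and -1.14 (SE 0.65) in the later (Jan20 to Jun20). USP18 was at -0.91 in the earlier year and -0.66 in the later, UBA7 at -1.06 and -0.47, HERC5 at -0.85 and -0.73, and HERC6 at -0.30 and -0.026. The interaction of group and year passed for none of the 5 (limma unadjusted p from 0.359 to 0.997) and for 0% of all tested genes, where 7 genes (0.0658%) had an unadjusted p under 0.05, none of them among the 5.

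ISG15, UBA7 and USP18 moved together over the cows most tightly. Pearson's r of log2(RPKM + 1) over 39 cows was 0.924 between UBA7 and USP18 (Spearman's rho 0.882), 0.896 between ISG15 and USP18 (rho 0.858) and 0.883 between ISG15 and UBA7 (rho 0.816). HERC5 followed them less closely, with r of 0.775 to ISG15 (rho 0.733), 0.743 to USP18 (rho 0.745) and 0.721 to UBA7 (rho 0.688). Each of these 6 relations had a permutation p of 1e-05 for r and for rho, the smallest that 100000 resamples can give, and 1.67e-05 after adjustment over the 10 pairs. Without the 2 cows farthest from the median of the first gene, r of the 6 ran from 0.651 to 0.890. Within groups they ran from 0.681 to 0.891 in LOW RFI and from 0.699 to 0.969 in HIGH RFI cows, and within tag years from 0.609 to 0.836 in the earlier and from 0.783 to 0.965 in the later.

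Many genes correlated in these libraries, which share scaling and cell makeup. The median r of all other tested genes was 0.396 with ISG15, 0.534 with UBA7 and 0.537 with USP18. Against that background USP18 was placed 6th and UBA7 16th of 10635 genes by r with ISG15, and HERC5 428th. Among genes ordered by r with USP18, UBA7 was 5th and ISG15 12th. For HERC5 the other members stood out less: ISG15 was 712th, USP18 1027th and UBA7 1267th. With HERC6 the median r of all other tested genes was negative, at -0.283. Among genes ordered by r with HERC6, HERC5 was 927th, ISG15 2368th, UBA7 4104th and USP18 4475th, each above that median.

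HERC6 passed no test of a relation with the others over the 39 cows. Its r was 0.039 with ISG15 (rho 0.095), -0.164 with UBA7 (rho -0.132), 0.258 with HERC5 (rho 0.202) and -0.202 with USP18 (rho -0.110), with adjusted permutation p from 0.161 to 0.811 for r and from 0.311 to 0.567 for rho. The correlation with ISG15 was 0.843 higher for UBA7 than for HERC6, 0.736 higher for HERC5 and 0.857 higher for USP18. In a permutation test that swaps the 2 genes within a cow, a test chosen after seeing the data, these differences had adjusted p of 0.00337, 0.00108 and 0.00337. Within groups, r of HERC6 with ISG15 was -0.355 in LOW RFI and 0.297 in HIGH RFI cows, and within tag years it was 0.396 in the earlier and -0.082 in the later.

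HIGH RFI 17, LOW RFI 20 and LOW RFI 18 held the lowest 3 values of ISG15 and of UBA7 and the lowest 3 of USP18, yet they ranked 34th, 38th and 37th of 39 for HERC6, counted from the lowest. They were also the cows of highest milk protein score, at 15.8, 15.5 and 15.4, with the lowest 3 neutrophil scores (1.10, 1.52 and 1.88). Without these 3 cows r of HERC6 with ISG15 was 0.419 (n = 36), and the correlation with ISG15 was still higher for UBA7 by 0.386, for HERC5 by 0.284 and for USP18 by 0.406 (adjusted permutation p = 0.0259, 0.0217 and 0.0217).

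**Figure D4:**
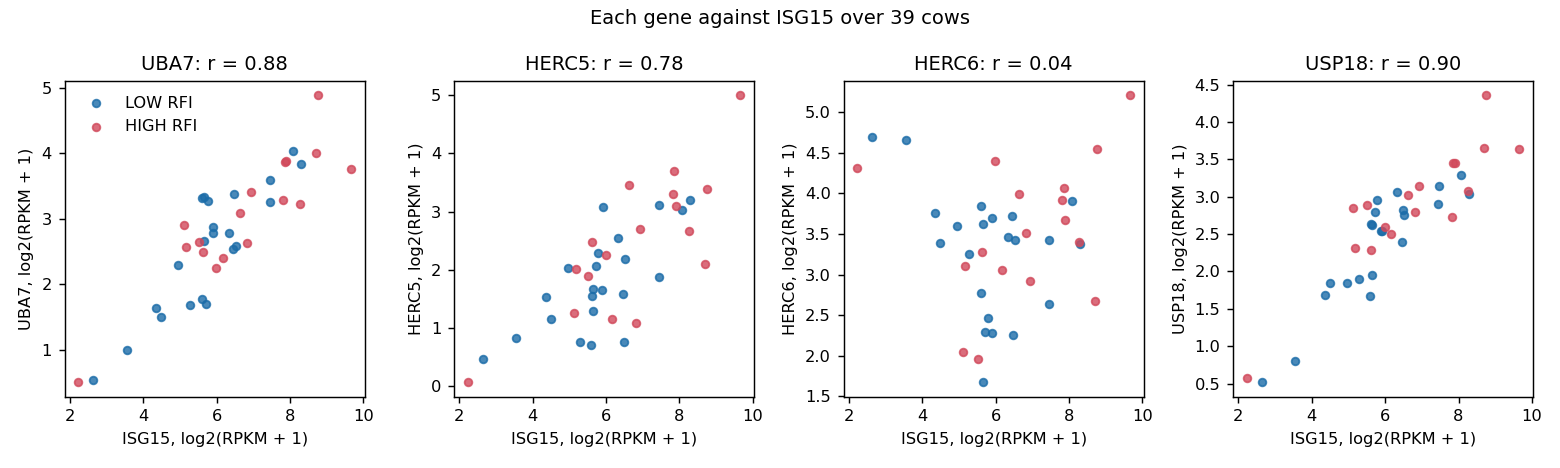
Each of the other 4 genes against ISG15 over 39 cows, both axes log2(RPKM + 1), with a point per cow coloured by group. UBA7, HERC5 and USP18 run with ISG15 (r from 0.775 to 0.896), while HERC6 does not (r = 0.039). HERC6 is high in the cows of lowest ISG15 and also in HIGH RFI 11, the cow of highest ISG15.

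The neutrophil and macrophage scores had positive r with the other 4 genes and negative r with HERC6. With the neutrophil score, r was 0.842 for ISG15, 0.709 for USP18, 0.707 for UBA7 and 0.661 for HERC5, with adjusted permutation p over 20 relations of at most 5.71e-05, against -0.059 for HERC6 (0.759). With the macrophage score, r was 0.778 for UBA7, 0.725 for USP18, 0.638 for ISG15 and 0.584 for HERC5 (adjusted permutation p of at most 7.5e-05), and it was -0.466 for HERC6. Spearman's rho with the neutrophil score was 0.742, 0.710, 0.668 and 0.597 in the order given for that score, and -0.068 for HERC6. For the macrophage score rho was 0.620, 0.510, 0.432 and 0.560, and -0.381 for HERC6. Without the 2 cows farthest from the median score (HIGH RFI 17 and LOW RFI 20), r of HERC6 with the macrophage score was -0.358, and r of the other 4 lay between 0.433 and 0.661. Under quantile normalization r with the macrophage score was 0.544 for UBA7, 0.376 for USP18, 0.431 for ISG15 and 0.353 for HERC5. It was -0.688 for HERC6, and all of these still passed (adjusted permutation p of at most 0.0425). With the neutrophil score r of the other 4 then lay between 0.618 and 0.764. The macrophage relation of HERC6 was seen in the later tag year (r = -0.623) and not in the earlier (r = 0.013). It no longer passed without LOW RFI 18, LOW RFI 20, HIGH RFI 11 and HIGH RFI 17 (r = -0.299, adjusted permutation p = 0.126), nor did that of ISG15 (r = 0.377, adjusted permutation p = 0.0662). For the other 4 genes, r with the neutrophil score ran from 0.307 to 0.595 in the earlier tag year and from 0.768 to 0.925 in the later, and r with the macrophage score from 0.515 to 0.738 and from 0.594 to 0.801. With the T cell score USP18 alone passed (r = 0.465, rho 0.362, adjusted permutation p = 0.0057 for r). There r was 0.349 for UBA7, 0.311 for HERC5, 0.285 for ISG15 and -0.087 for HERC6. With the epithelium score r ran from -0.224 for ISG15 to 0.147 for HERC6, and none passed.

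Together the neutrophil, macrophage, T cell and mammary epithelium scores took up 76.5% of the variance of ISG15 over cows, 73.9% of USP18, 72.6% of UBA7, 56.2% of HERC5 and 32.6% of HERC6. The median over all tested genes was 67.4%, while 10.7% of genes lay below HERC6. Once these 4 scores were removed, HERC5 and HERC6 varied together with r of 0.703 (rho 0.717, adjusted permutation p = 2.5e-05), against 0.258 before. In the same residuals r was 0.760 between UBA7 and USP18, 0.757 between ISG15 and USP18 and 0.729 between ISG15 and UBA7, and 0.410 between ISG15 and HERC6. The last value was 0.206 without HIGH RFI 3 and HIGH RFI 11. HERC5 kept lower values with the other 3, at 0.431 with ISG15 (0.230 without the same 2 cows), 0.376 with USP18 and 0.332 with UBA7, against 0.775, 0.743 and 0.721 before. These residual relations were added after seeing the data.

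HERC5 and HERC6 had opposite relations with milk protein transcripts. The milk protein score, chosen for this after values were seen, correlated with HERC6 at r of 0.400 (rho 0.385, adjusted permutation p = 0.0116 over 6 relations) and with HERC5 at -0.531 (rho -0.660, adjusted permutation p = 0.000705). The HERC6 relation was near 0 in the earlier tag year (r = 0.074) and larger in the later (r = 0.591), and it was 0.295 without LOW RFI 18, LOW RFI 20 and HIGH RFI 17. For HERC5 these values were -0.619, -0.488 and -0.442. For ISG15, UBA7 and USP18 r was -0.407, -0.566 and -0.569 over all cows. Most genes were lower in milk-rich cows, as the median rho over all tested genes was -0.598. By its own rho HERC6 lay above 93.0% of genes, whereas HERC5 lay above 40.4%.

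The ratio of HERC5 to HERC6 within a cow, which library scaling moves only through the pseudocount, varied with the milk protein, macrophage and neutrophil scores. This ratio was added to the planned ratios to ISG15, and the milk protein score was chosen after values were seen. The p and the place among genes given below therefore describe these data and are no independent test. Its log2 value ran from -4.25 in HIGH RFI 17 to -0.0052 in LOW RFI 17, and rho with the milk protein score was -0.921 (r = -0.767, permutation p = 1e-05 for each, the smallest the resamples can give). Without the 2 cows farthest from the median score, HIGH RFI 12 and HIGH RFI 1, r was -0.813. The relation was of like size within LOW RFI (r = -0.815) and HIGH RFI cows (r = -0.702), within the earlier (r = -0.799) and later tag year (r = -0.80), and without the 3 milk-richest cows (rho = -0.90, n = 36). On recovered reads with no pseudocount rho was -0.910. With the macrophage score the ratio had the larger r (0.863) and a smaller rho (0.749), and with the neutrophil score r was 0.644 (rho 0.569), with adjusted permutation p of at most 0.0004. With the T cell score r was 0.345 (adjusted permutation p = 0.0417) and rho 0.110 (adjusted permutation p = 0.502). Of the 10635 other tested genes set against HERC6 in the same way, 0 gave a lower rho with the milk protein score than HERC5, and their median was -0.596. ISG15, UBA7 and USP18 against HERC6 gave rho of -0.680, -0.726 and -0.682.

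**Figure D5:**
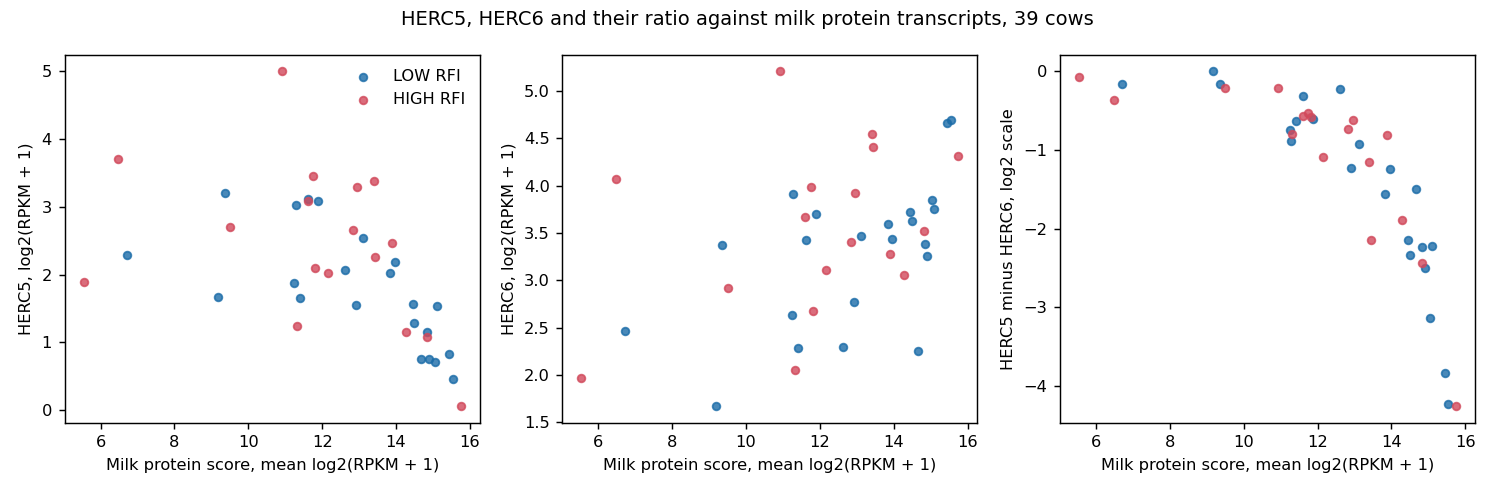
HERC5, HERC6 and their log2 ratio against the milk protein score (mean log2(RPKM + 1) of 7 milk protein genes) over 39 cows, a point per cow coloured by group. The ratio is highest in milk-poor cows and reaches -4.25 in the milk-richest cow, and LOW RFI and HIGH RFI cows lie along the same band.

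Relative to ISG15, the enzymes and the protease did not differ between the groups beyond the spread of the cows. The log2 ratio of UBA7 to ISG15 averaged -3.26 ± 0.70 over LOW RFI cows (SD, n = 22), against -3.73 ± 1.04 over HIGH RFI cows (SD, n = 17), a difference of 0.47 (permutation p = 0.103). The differences were 0.30 for HERC5, 0.70 for HERC6 and 0.40 for USP18, and adjusted permutation p over the 4 ratios ran from 0.308 to 0.387. The ratio of HERC5 to HERC6 averaged -1.49 ± 1.21 over LOW RFI cows (SD, n = 22), against -1.09 ± 1.06 over HIGH RFI cows (SD, n = 17) (permutation p = 0.284).

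Genes whose pattern over the 39 cows was most like these were ranked by Pearson's r of log2(RPKM + 1) among all tested genes. For the mean of the 5, the first named genes were FCGR3A (0.910), a low-affinity Fc receptor of immunoglobulin G, IRF9 (0.901), a subunit of the interferon-activated transcription factor, and ZNFX1 (0.90), an antiviral helicase. OAS1Z (0.894), PARM1 (0.892), XAF1 (0.881), CD80 (0.881) and TRANK1 (0.878) completed the first 10 with 2 genes known by Ensembl identifier alone. UBA7 was most like DHX58 (0.965), a regulator of viral RNA sensing, ZBP1 (0.944) and IRF9 (0.939). HERC5 was most like an Ensembl-only gene (0.947), DTX3L (0.945) and IFIH1 (0.940), a sensor of long viral RNA. USP18 was most like IRF9 (0.939), PARP12 (0.936) and DHX58 (0.934), and ISG15 after 2 Ensembl-only genes most like FCGR3A (0.909). HERC6 stood elsewhere, with RAB3IP (0.782), AUH (0.713) and ZNF330 (0.710) first. These values describe libraries that share scaling and cell makeup.

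Other ISG15 enzymes and readers were lower on average in LOW RFI cows in 12 of 13 genes, where 73% of all tested genes were, with 0 passing and a median difference of -0.33. UBE2L6 differed by -0.39 and TRIM25, another ISG15 ligase in human cells, by -0.44. The most abundant of the list were ITGB2 (135 RPKM over all cows, difference -0.39), TRIM25 (29.0 RPKM) and ITGAL (28.3 RPKM, difference -0.54), where ITGAL and ITGB2 form the integrin that binds free ISG15. UBE2L6 had the highest r with ISG15 of this list (0.879), and the list's median was 0.471.

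Interferon receptor and signalling genes had a lower mean in LOW RFI in all 15 tested, with 0 passing and a median of -0.50. IFNGR1 (-0.88) and JAK2 (-0.61) had an unadjusted p under 0.05, 2 of 15, where 5.52% of all tested genes were lower at that level. Among their most abundant members were IFNGR2 (-0.34) and JAK1 (-0.15). Their median r with ISG15 was 0.796, and the highest was that of IRF9 (0.905). Interferon-stimulated effectors had a lower mean in all 34 tested, beside 73% of all tested genes, with 0 passing and a median of -0.57. At an unadjusted p under 0.05 were 11 of the 34, beside the same 5.52% of all tested genes. IFITM3 (-0.73), PSMB9 (-0.41) and IFITM1 (-1.06) were the most abundant, and reads of the similar IFITM genes may be shared. The effectors' median r was 0.772 with ISG15 and -0.019 with HERC6, beside 0.396 and -0.283 over all tested genes.

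Interferon genes themselves were scarcely detected. Of 15 listed, 7 have a row and none reached the filter. IFNG was at 1 RPKM or more in 5 cows, with a highest value of 2.40 RPKM. IFNB3 reached 0.337 RPKM and was listed at 0 in 11 cows, IFNL3 reached 0.255 RPKM, and IFNE was listed at 0 in all 39. Near-identical interferon copies may share reads.

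Other ubiquitin-like systems varied less over the cows. The median SD over cows on the log2 scale was 0.97 for the 5 ISG15 genes, against 0.62 for 21 genes of ubiquitin conjugation, 0.60 for 16 of SUMO, 0.46 for 11 of NEDD8, 0.57 for 7 of UFM1 and 0.60 over all tested genes. The wide spread was not particular to the ISG15 genes. It was 1.05 for interferon-stimulated effectors and 1.13 for interferon receptor and signalling genes. Neutrophil, macrophage and T cell markers had 1.71, 1.38 and 1.37. The median group difference was -0.15 for ubiquitin, -0.18 for SUMO, -0.040 for NEDD8 and -0.11 for UFM1 conjugation, with 0 of these 55 genes passing. At an unadjusted p under 0.05 and lower in LOW RFI were 4 ubiquitin genes (among them USP9X, USP15 and UBA6), 3 SUMO genes (PIAS1, RANBP2 and SENP1) and 1 UFM1 gene (UFL1), beside 5.52% of all tested genes. The ubiquitin gene UBB, at 1384 RPKM over all cows, differed by -0.12, and RPS27A by 0.32. SUMO2 and SUMO3 differed by -0.0034 and 0.011, NEDD8, UBE2F and UBE2M by 0.062, 0.022 and -0.040, and UFC1, DDRGK1 and CDK5RAP3 by 0.16, 0.047 and 0.10.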

How the data were processed

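The authors deposited 1 table of RPKM for 21661 features in 39 cows, per the file headers, with 1 library per cow. Per the submitters' processing notes, the build was ARS-UCD1.2. Aligner, counter, annotation and any use of strand were not given in the sources used here, so overlapping or antisense genes cannot be separated. Milk was drawn through a cannula, RNA was extracted with Trizol and a TruSeq kit made the libraries, as the labels' protocols say. Names and neighbours, and nothing else, came from a RefSeq table of ARS-UCD2.0.

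Numbered rows of 1 symbol (135 rows) were summed, leaving 21590 genes. Reads, gene lengths and library totals were recovered from the steps of the RPKM values. All 19616 features above 0 (100%) gave whole reads within 0.02 reads, and they were used for depth and for limma-voom. The plan named limma for normalized values, and limma-trend (limma 3.58.1 in R 4.3.3, with trend and robust settings) was run on log2(RPKM + 1) for genes with at least 1 RPKM in at least 17 cows. Fold changes are on that scale, which understates changes of low genes. The threshold was an adjusted p of 0.05. Single values were tested with two-sided permutation tests of 100000 resamples. The scripts were tested on simulated data. Median reads behind a member lay between 661 and 5076 in a group, and the spread between cows limits precision. Replicate numbers follow the labels' order, and no animals are paired.

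The members, lists and tests were chosen with earlier results of these data known. Named genes are the 5 members, the 3 most abundant of each list, any that pass, and the genes of highest r. Some genes that this rule names are not reported here. Others were chosen after their values were seen, among them the genes at an unadjusted p under 0.05. Alternatives were other pseudocounts, filters, scalings, covariates and weights, and libraries left out.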

Additional observations from a re-analysis of the deposited data

How the results depend on the processing

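Over 19 alternatives each, the group difference kept its sign for all 5 genes, and 2 genes were called under library weights only: HERC5 at -0.89 and USP18 at -0.54 with array weights, -1.09 and -0.62 with limma-voom and quality weights. Those fits called 2213 and 1968 genes in all, and the other settings called 0. Ranges were -1.24 to -0.17 for ISG15, -0.68 to -0.092 for UBA7, -1.09 to -0.28 for HERC5, -0.51 to -0.11 for HERC6 and -0.75 to -0.24 for USP18. Not all of the alternatives could change the difference, since the changed filters and the permutation test leave it as it was. Leaving out the highest cow repeats the fit without HIGH RFI 11 for ISG15, HERC5 and HERC6. Quantile normalization moved the median difference of all genes to 0.017, against -0.12 as deposited. The year interaction, with 1 library left out, ran from -0.37 (without HIGH RFI 17) to 0.25 (without HIGH RFI 11) for ISG15 and from -0.069 to 0.34 for HERC5 in the same order. For HERC6 with ISG15 r was -0.0093 under quantile normalization and 0.410 after removal of cell type scores. After that removal HERC6 was at 0.249 with UBA7, 0.703 with HERC5 and 0.065 with USP18, and HERC5 was at 0.332 with UBA7 and 0.431 with ISG15. Without LOW RFI 18, LOW RFI 20, HIGH RFI 11 and HIGH RFI 17, HERC6 was at 0.073 with UBA7, 0.434 with HERC5, 0.042 with USP18, 0.070 with the neutrophil score, -0.299 with the macrophage score and 0.347 with the T cell score. In those cows ISG15 was at 0.377 with the macrophage score, USP18 at 0.221 with the T cell score, and HERC6 exceeded UBA7 by 0.32. Of these, HERC6 with HERC5 newly passed, and HERC6 and ISG15 with the macrophage score, USP18 with the T cell score and the step between HERC6 and UBA7 no longer passed (adjusted permutation p = 0.126, 0.0662, 0.253 and 0.0746). A pseudocount of 0.1 put the T cell score at 0.415 with UBA7 and 0.409 with HERC5, and the epithelium score at 0.0020 with HERC5. Quantile normalization put the epithelium score at -0.418 with ISG15, -0.463 with UBA7, 0.384 with HERC6 and -0.416 with USP18, and the T cell score at 0.188 with USP18. The cause was not tested. No paired analysis was possible because the replicate numbers name cows in label order and pair no animals.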
